A study of Saccharomyces cerevisiae with 4 samples.

Results

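The 10 ADE genes that encode the enzymes of de novo purine synthesis were examined in budding yeast, Saccharomyces cerevisiae, with and without the chromatin-remodelling ATPase gene CHD1. They were chosen by name, and all 10 were found among the 5816 genes counted. ADE5,7, which encodes a protein with a pair of enzyme activities, was taken by its locus YGL234W. RNA was sequenced from 2 libraries of a chd1 deletion strain and 2 of the wild type, both in the BY4741 background, grown at 30 °C with shaking in YPD, a rich glucose medium, and collected in mid-log phase. The labels do not say how CHD1 was deleted, nor that the replicates are separate cultures; the p-values therefore reflect the spread among these libraries, part or all of which may be technical.

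De novo purine synthesis builds the purine ring stepwise on phosphoribosyl pyrophosphate (PRPP) until inosine monophosphate (IMP) is made, and branches from there to AMP and to GMP. In yeast the transcription factors Bas1 and Pho2 together activate most of these genes when adenine is scarce, and the cells can also take up and salvage purines from a rich medium. Cells blocked at ADE1 or ADE2 turn red from an accumulated intermediate, which made these genes classical markers. Bas1 binds sites with the core TGACTC, which is also the core of sites bound by Gcn4, the activator of amino acid synthesis genes.

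This core was a feature that the members shared and that their choice had not used. In the 500 bases before the start codon, read from the R64 genome, TGACTC occurred on either strand in 9 of the 10 ADE genes, against 759 of 6000 protein-coding genes (12.7%). At least 2 copies were found in 6 of the 10 ADE genes, against 86 of 6000 genes (1.43%). This was not particular to the ADE genes. Of the lists treated below, 4 of 6 genes of histidine synthesis and 4 of 9 of one-carbon supply also had at least 2 copies. The other lists below had 0 such genes. The longer form TGACTCA, which contains the core and is the preferred form of Gcn4, was present upstream of 1 member, ADE12, against 4% of all genes. ADE16 was the 1 member without the core in this window. A match is a run of letters and not a shown binding site, and its absence from this window says nothing of the factor. The copy nearest the start codon in each of the 9 genes is shown to let the flanks be compared, with 12 bases on either side, read in the direction of the gene and with the core in capitals (GAGTCA where the core lies on the opposite strand).
ADE4 (chrXIII:867431-867460, minus strand): gacccgatgtatTGACTCttcctgaccgaa
ADE5,7 (chrVII:56286-56315, plus strand): acaagtgccgacTGACTCgtgtcctggtaa
ADE8 (chrIV:1289009-1289038, minus strand): actcgttgctagTGACTCtgacctgttttt
ADE6 (chrVII:616224-616253, minus strand): ttcaaccgttccTGACTCtttcctgctgac
ADE2 (chrXV:566327-566356, minus strand): atactaagtgatTGACTCttgctgaccttt
ADE1 (chrI:169146-169175, plus strand): cacgagtcagtcTGACTCttgcgagagatg
ADE13 (chrXII:844054-844083, plus strand): cctccgcgagcaGAGTCAaacttcaaacaa
ADE17 (chrXIII:509440-509469, minus strand): ccagaaatgaatTGACTCctctcataactt
ADE12 (chrXIV:234179-234208, plus strand): atccttttcattGAGTCAcagattaacaaa
In these 9 genes the first base of that copy lay between 153 bases (ADE2) and 357 bases (ADE4) before the start codon. ADE1 held a further copy on the opposite strand, visible in the printed flank.

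Libraries held 4117998 and 2597514 gene reads in deletion replicates 1 and 2, and 2145684 and 2824770 in wild-type replicates 1 and 2. CHD1 had 7 and 3 reads in the deletion libraries against 211 and 396 in the wild-type libraries, in accord with the labels. Every member was well covered, with between 312 and 4078 reads in any library, and all 10 passed the filter on low counts. None of the 10 overlaps another annotated gene in R64. Levels are CPM, reads per 1e6 reads of the TMM-scaled library size. Levels set against each other between genes are CPM per kb of the deposited gene length, which runs beyond the coding sequence. Adjusted p-values come from the quasi-likelihood test of edgeR, with Benjamini-Hochberg adjustment over all 5488 genes tested, and a log2 fold change (deletion over wild type) is given with its standard error.

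In the cells without CHD1, 3 of the 10 ADE genes fell, ADE2, ADE6 and ADE13, and 7 did not pass the test. The falls were modest, to between 0.730 and 0.788 of the wild-type level; in bulk RNA, less RNA per cell and fewer cells expressing a gene cannot be told apart. Over all genes tested 3.06% were lower and 1.68% higher, 4.74% in all (168 and 92 genes, against 65 and 176 with total gene counts). The median log2 fold change of the ADE genes was -0.22, against 0.004 for all genes tested; 9 members had a negative value, as had 49.4% of all genes, and ADE16 alone had a positive one. At an unadjusted p under 0.05 there were 5 lower members and 0 higher ones. Of the 5488 genes tested 605 were lower and 468 higher at that level, 19.6% in either direction. DESeq2 and limma-voom each also called 3 members lower and 0 higher. A fit without 1 library has an unreplicated group, so its p-values rest on the spread of the other pair alone. Replicates stood further apart in wild type than in the deletion (chi-square per degree of freedom 6.26 and 2.50). Calls gained or lost in such fits, here and below, are therefore only descriptive. Leaving out deletion replicate 1 or deletion replicate 2 left 0 members called lower, and leaving out wild-type replicate 1 gave 4; at an unadjusted p under 0.05, edgeR then had 3, 3 and 4 lower members, and in the last of these fits 1 higher member. With total gene counts in place of TMM factors the number was also 0. At an unadjusted p under 0.05, edgeR then had 4 lower members and 1 higher member. That scaling moved the median of all genes to 0.11 and that of the ADE genes to -0.11. The ADE median thus lay 0.22 below that of all genes under both scalings. A change of scaling moves all genes nearly alike, so it cannot test this gap.

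**Figure D1:**
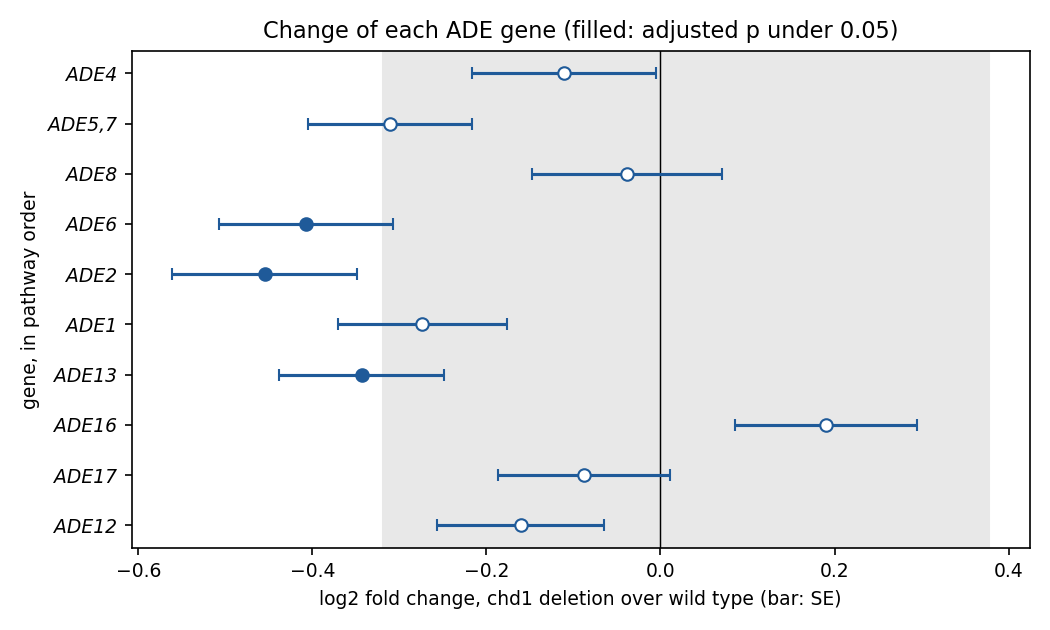
Log2 fold change of each ADE gene, chd1 deletion over wild type, in pathway order from top to bottom; bars are standard errors, filled points have an adjusted p under 0.05, and the grey band spans the 10th to 90th percentile of all genes tested (-0.32 to 0.38). ADE6, ADE2 and ADE13 lie left of the band, and ADE16 is the 1 gene right of 0.

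Summed over the 10 genes, the pathway took 4076 and 4071 CPM in the deletion libraries and 4753 and 4899 CPM in the wild-type libraries. With TMM factors the mean in the deletion was 0.844 of that in the wild type, and the groups did not overlap. As a share of all gene reads, without TMM factors, the difference was smaller. The 10 genes then took 0.425 and 0.419% in the deletion libraries and 0.449 and 0.482% in the wild-type libraries. Taken gene by gene, both deletion libraries lay below both wild-type libraries for 7 members and above them for 1, while 2 overlapped. Among all genes tested 24.4% were separated downward and 24.9% upward in this way.

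The first committed step is made by the amidotransferase encoded by ADE4. ADE4 (YMR300C, chromosome XIII, 865559 to 867091) had 176 and 168 CPM in the deletion libraries, against 192 and 180 CPM in the wild-type libraries. These ranges lay close together without overlap, and the log2 fold change of -0.11 ± 0.11 did not pass (adjusted p = 0.618). ADE5,7 (YGL234W, chromosome VII, 56482 to 58890) encodes the enzyme of an early step, glycinamide ribotide synthesis, and of the later ring closure. It had 632 and 607 CPM in the deletion libraries, against 750 and 787 CPM in the wild-type libraries. The groups were well apart, but the log2 fold change of -0.31 ± 0.09 missed the threshold (adjusted p = 0.0642), which it passed without wild-type replicate 1 (adjusted p = 0.00662). ADE8 (YDR408C, chromosome IV, 1288215 to 1288859) encodes the first of the formyl transferases. Its levels overlapped, at 147 and 139 CPM in the deletion libraries and 154 and 140 CPM in the wild-type libraries, with a log2 fold change of -0.04 ± 0.11 (adjusted p = 0.897).

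ADE6 (YGR061C, chromosome VII, 611889 to 615965) encodes the amidotransferase that follows ADE8, and its transcript is the longest of the 10. It had 430 and 397 CPM in the deletion libraries, against 517 and 579 CPM in the wild-type libraries, or 413 ± 23.8 against 548 ± 43.6 CPM (mean ± SD, n = 2 each). Its log2 fold change was -0.41 ± 0.10 (adjusted p = 0.0242), a gap wider than that between the replicates of either genotype (0.12 in the deletion and 0.16 in wild type, log2). The call was lost with total gene counts (log2 fold change -0.30, adjusted p = 0.105). It was also lost without wild-type replicate 2 (-0.31) and without either deletion replicate.

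ADE2 (YOR128C, chromosome XV, 564476 to 566191), the carboxylase gene of the red-pigment step, showed the largest change among the 10 with TMM factors and all 4 libraries. It had 155 and 146 CPM in the deletion libraries, against 214 and 201 CPM in the wild-type libraries, with means of 151 ± 6.30 and 207 ± 9.41 CPM (SD, n = 2 each). The replicates stood 0.085 apart in the deletion and 0.093 apart in wild type on the log2 scale, replicate 2 being the lower in both. It fell with a log2 fold change of -0.45 ± 0.11 (adjusted p = 0.0176). The call was lost with total gene counts (log2 fold change -0.35, adjusted p = 0.0713). It was also lost without deletion replicate 1 (-0.50) and without deletion replicate 2 (-0.42), where the wild-type pair alone gave the spread. The change itself stayed near the -0.45 found with all 4 libraries.

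ADE1 (YAR015W, chromosome I, 169375 to 170295) encodes the synthetase that uses the product of ADE2. It had 442 and 452 CPM in the deletion libraries, against 567 and 514 CPM in the wild-type libraries. The groups did not overlap, and the log2 fold change was -0.27 ± 0.10 (adjusted p = 0.116), past the threshold without wild-type replicate 2 (adjusted p = 0.0294).

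ADE13 (YLR359W, chromosome XII, 844282 to 845730) encodes adenylosuccinate lyase, which acts once on the way to IMP and again on the way to AMP. It had 949 and 977 CPM in the deletion libraries, against 1164 and 1278 CPM in the wild-type libraries, with means of 963 ± 19.6 and 1221 ± 80.8 CPM (SD, n = 2 each). ADE13 alone held 23.6% of the summed ADE CPM in the deletion and 25.3% in wild type. Its log2 fold change of -0.34 ± 0.09 passed narrowly (adjusted p = 0.0423). The call was lost with a stricter count filter (adjusted p = 0.0502), with total gene counts (adjusted p = 0.160) and without either deletion replicate.

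The last steps to IMP are catalysed by paralogous enzymes encoded by ADE16 and ADE17. ADE16 (YLR028C, chromosome XII, 199540 to 201315) had 273 and 295 CPM in the deletion libraries, against 262 and 236 CPM in the wild-type libraries. It was the 1 member with both deletion libraries above both wild-type libraries, but the log2 fold change of 0.19 ± 0.10 did not pass (adjusted p = 0.327). ADE17 (YMR120C, chromosome XIII, 507502 to 509280) had 459 and 499 CPM in the deletion libraries, against 485 and 531 CPM in the wild-type libraries. Its groups overlapped, with a log2 fold change of -0.09 ± 0.10 (adjusted p = 0.686).

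ADE17 reads outnumbered ADE16 reads in every library, by 1.68 and 1.69 times in the deletion libraries and by 1.85 and 2.25 times in the wild-type libraries. The ratio was thus lower in both deletion libraries, and with 2 libraries against 2 an exact permutation test cannot give a p below 0.333. The coding sequences, 1776 and 1779 bases long, were 74.7% identical in a global alignment. Their longest identical stretch there was 19 bases, aacaaaagagaaacgatgc (chrXII:200141-200159 in ADE16 and chrXIII:508106-508124 in ADE17, both on the minus strand), shown because reads that match both genes would come from such stretches. The counted genes run beyond the coding sequence, and those parts were not compared. None of the 1727 windows of 50 bases in the ADE16 coding sequence occurred in that of ADE17. How reads with several equally good positions were counted is not given in the sources used here.

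ADE12 (YNL220W, chromosome XIV, 234413 to 235714) encodes adenylosuccinate synthetase, the entry from IMP to AMP. It had 412 and 394 CPM in the deletion libraries, against 449 and 452 CPM in the wild-type libraries. The groups did not overlap, and the log2 fold change of -0.16 ± 0.10 did not pass (adjusted p = 0.378).

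Per kb, the 10 transcripts differed far more from each other than between genotypes. ADE13 stood first, with 585 ± 11.9 CPM per kb in the deletion and 742 ± 49.1 in wild type, followed by ADE1 with 399 ± 5.80 and 483 ± 33.2 (SD, n = 2 each). In wild type ADE5,7 and ADE12 came next at 305 and 303 CPM per kb and overlapped, followed by ADE17 (255) and ADE8 (168), each apart from its neighbours. The lowest 4 in wild type were ADE6 (131), ADE16 (124), ADE2 (115) and ADE4 (111), and neighbours in that order overlapped. In the deletion ADE16 came to stand seventh, with 141 CPM per kb, above ADE4 (102), ADE6 (98.7) and ADE2 (83.5). The highest level was 7.01 times the lowest in the deletion (ADE13 over ADE2) and 6.69 times in wild type (ADE13 over ADE4).

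**Figure D2:**
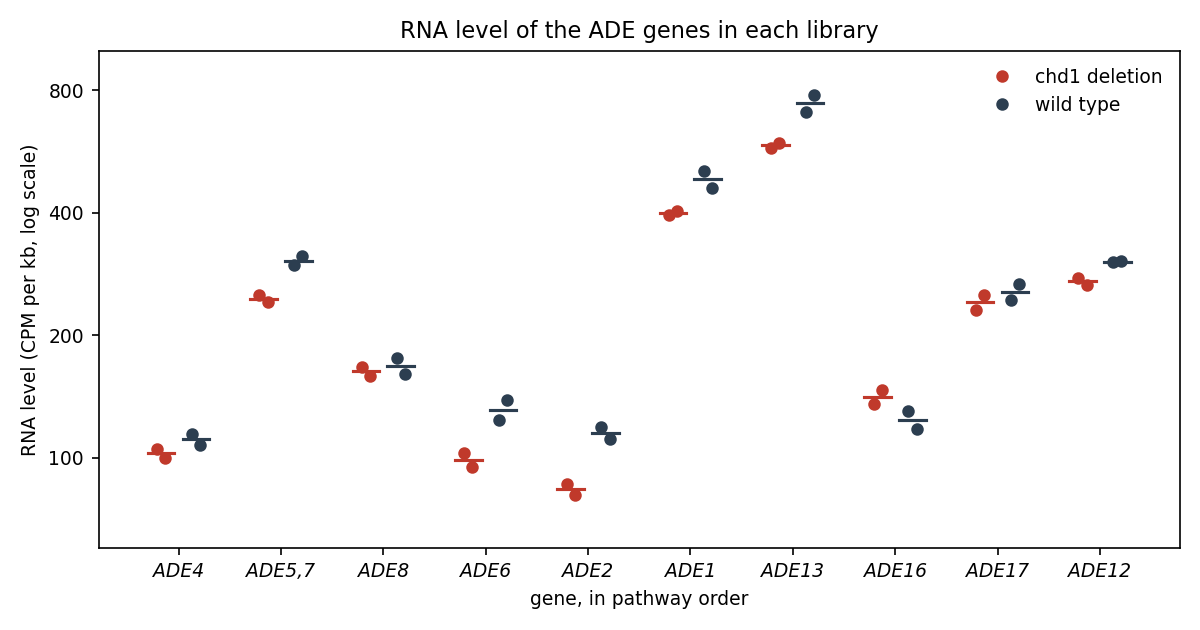
RNA level of each ADE gene in CPM per kb (log scale), with genes in pathway order; points are single libraries, short lines their means, with the chd1 deletion left of wild type. ADE13 and ADE1 stand highest, and for ADE16 both deletion points lie above both wild-type points.

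The genes on either side of the 3 members that fell did not pass the test. Beside ADE6, the log2 fold changes were 0.08 for ERG25 and 0.66 for COX18 (adjusted p = 0.736 and 0.140). Beside ADE2, RGA1 was at -0.48 and AFI1 at 0.25 (adjusted p = 0.0576 and 0.645). Beside ADE13, YLR358C was at -0.40 and VPS38 at 0.24 (adjusted p = 0.560 and 0.416). Without wild-type replicate 1, RGA1 was at -0.65 and COX18 at 0.98. Without wild-type replicate 2, RGA1 was at -0.24 and COX18 at 0.33. RGA1 passed narrowly with DESeq2 size factors and with no count filter (adjusted p = 0.0488 and 0.0470).

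The pathway draws formyl groups from folate-bound one-carbon units. Of 9 genes that supply these, 4 rose, 0 fell and 5 did not pass, against 1.68% higher and 3.06% lower over all genes tested. At an unadjusted p under 0.05 edgeR had 4 higher and 2 lower ones, against 468 and 605 of 5488 genes tested. DESeq2 called 0 lower. The genes that rose encode the glycine cleavage proteins, GCV1, GCV2 and GCV3, and the cytosolic serine hydroxymethyltransferase, SHM2. GCV1 had 98.5 and 105 CPM in the deletion libraries, against 59.7 and 58.7 CPM in the wild-type libraries, with a log2 fold change of 0.78 ± 0.12 (adjusted p = 6.99e-04). GCV3 had 124 and 136 CPM in the deletion libraries, against 74.5 and 80.3 CPM in the wild-type libraries (0.74 ± 0.12, adjusted p = 7.53e-04). GCV2 rose by 0.51 and SHM2 by 0.35 on the log2 scale (adjusted p = 0.0137 and 0.0402).

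Without deletion replicate 1 the calls of GCV2 and SHM2 were lost, and without deletion replicate 2 that of SHM2. The mitochondrial counterpart SHM1 had 267 and 237 CPM in the deletion libraries, against 275 and 459 CPM in the wild-type libraries, whose replicates were far apart (-0.55 ± 0.16, adjusted p = 0.0573). The size of the SHM1 difference depended on wild-type replicate 2, without which the log2 fold change was -0.11 (adjusted p = 0.714). SHM1 passed the threshold when wild-type replicate 1 was left out (-0.85, adjusted p = 6.63e-13) and when deletion replicate 1 was (adjusted p = 0.00601), and narrowly with DESeq2 size factors and with no count filter (adjusted p = 0.0427 and 0.0383). ADE3, which carries the cytosolic steps that make the formyl donor, was at -0.06 (adjusted p = 0.808). The TGACTC core lay within 500 bases upstream of 7 of these 9 genes, against 12.7% of all protein-coding genes. Of the lists below, it was upstream of 1 of 5 guanine-branch genes, 5 of 14 salvage genes and 0 of 3 regulators.

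Upstream of ADE4, 1 of the 5 PRPP synthetase genes fell, PRS1 (-0.36 ± 0.10, adjusted p = 0.0351), with 555 and 533 CPM in the deletion libraries against 725 and 672 CPM in the wild-type libraries. Neither total gene counts nor the fits without a deletion replicate kept this call. The core was upstream of 0 of these 5 genes. Beyond IMP, 2 of 5 genes of the guanine branch fell, both of which encode IMP dehydrogenase. The share to set beside this count and that of PRPP synthesis is 3.06% lower over all genes tested. IMD4 fell by 1.09 (adjusted p = 7.49e-06), and IMD3 fell by 0.47 (adjusted p = 0.0137). The IMD3 call did not hold with total gene counts or without deletion replicate 2. IMD4 spans an annotated snoRNA gene whose reads the gene counts do not set apart, and the intron tables were not examined for it. How reads were divided among the related IMD genes was not tested. The guanine branch had 3 lower genes when either wild-type replicate was left out.

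Of 14 genes of purine salvage and interconversion, 1 fell and 13 did not pass. Over all genes tested 3.06% were lower, so 1 call does not set this list apart. The gene that fell was ADO1, which encodes adenosine kinase. It had 1397 and 1293 CPM in the deletion libraries against 1818 and 1757 CPM in the wild-type libraries (-0.41 ± 0.09, adjusted p = 0.0158). Like that of PRS1, its call was not kept in those 3 fits, while leaving out wild-type replicate 2 gave 3 lower salvage genes and total gene counts gave 2 higher and 0 lower ones. Histidine synthesis shares an intermediate with the purine pathway, and 5 of the 6 genes listed for it held the core; HIS3, a marker gene of the strain background, was not in the list. Of these 6 genes edgeR called 0 and DESeq2 called 0. With edgeR an unadjusted p under 0.05 was found for 1 higher gene and 1 lower gene, against 19.6% of all genes in either direction. HIS4 was at 0.31 ± 0.09 (adjusted p = 0.0659). It passed with total gene counts and with the stricter filter (adjusted p = 0.0158 and 0.0454). Without wild-type replicate 1 it was at 0.33, and without wild-type replicate 2 at 0.31. HIS1 was at -0.28 ± 0.10 (adjusted p = 0.123). It was at -0.38 without wild-type replicate 2 and at -0.16 without wild-type replicate 1.

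The transcripts of the regulators did not pass. BAS1 had 55.4 and 43.0 CPM in the deletion libraries, against 50.9 and 47.9 CPM in the wild-type libraries (0.02 ± 0.15, adjusted p = 0.951). PHO2 had 26.3 and 23.9 CPM in the deletion libraries, against 30.1 and 35.6 CPM in the wild-type libraries (-0.39 ± 0.17, adjusted p = 0.213). GCN4 was at -0.19 ± 0.10 (adjusted p = 0.281). Of these 3 genes edgeR had 1 lower at an unadjusted p under 0.05, against 605 of 5488 genes tested. DESeq2 and limma-voom called 0 of the 3, but DESeq2 gave PHO2 no adjusted p.

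**Figure D3:**
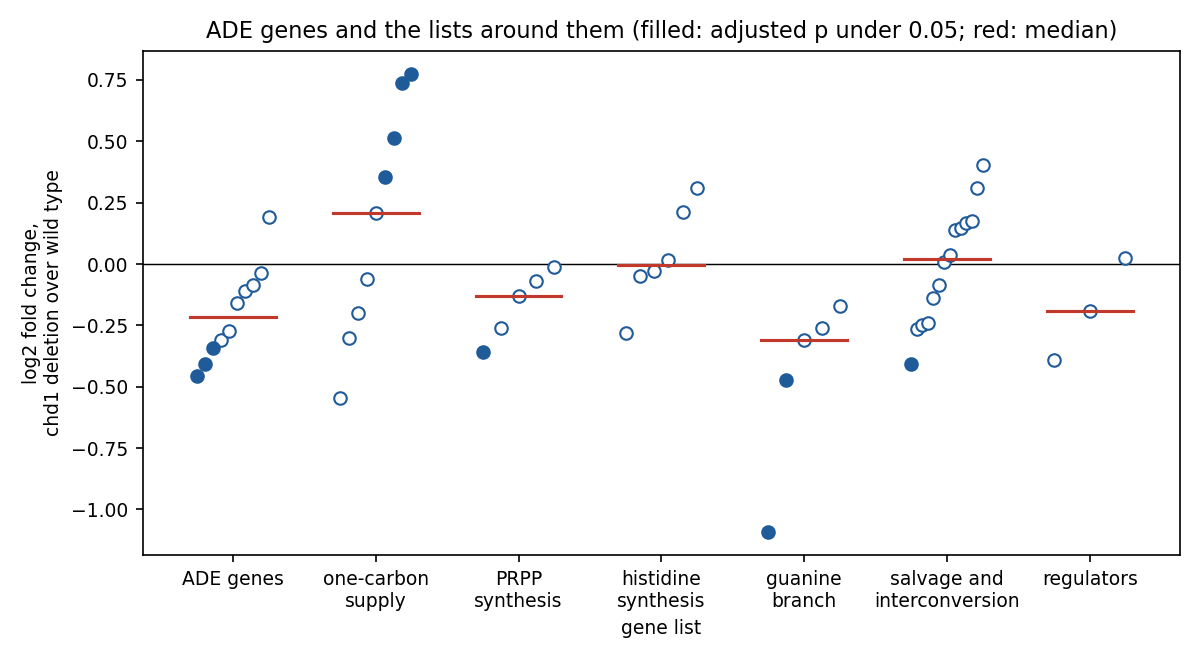
Log2 fold change, chd1 deletion over wild type, of the 10 ADE genes and of 6 lists around them; each point is a gene, filled where the adjusted p was under 0.05, and red lines are medians. The ADE genes have a median of -0.22 and the one-carbon genes one of 0.21, with 4 filled points above 0. PRPP synthesis and the guanine branch lie wholly below 0, the latter down to IMD4.

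Across the 4 libraries the mean profile of the 10 members, as centred log2 CPM, was -0.09 and -0.11 in the deletion libraries and 0.11 and 0.10 in the wild-type libraries. ADE12 followed it most closely, at a Euclidean distance of 0.05, and ADE16 least, at 0.41. Among genes that are no members, RPL43B, RRT2 and AIM9 lay nearest to it, at distances of 0.02. Each of these had a log2 fold change between -0.22 and -0.19, and none passed the test. A change of this size follows from their choice by nearness to that profile.

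Scaling decided the sign of members near 0. With total gene counts ADE8 and ADE17 turned positive, and with TAR1 and YLR154C-G, which overlap ribosomal RNA genes, also left out of the totals, ADE4 did so too. ADE2, ADE6, ADE13, ADE5,7, ADE1 and ADE12 stayed negative and ADE16 stayed positive under all 3 scalings.

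**Figure D4:**
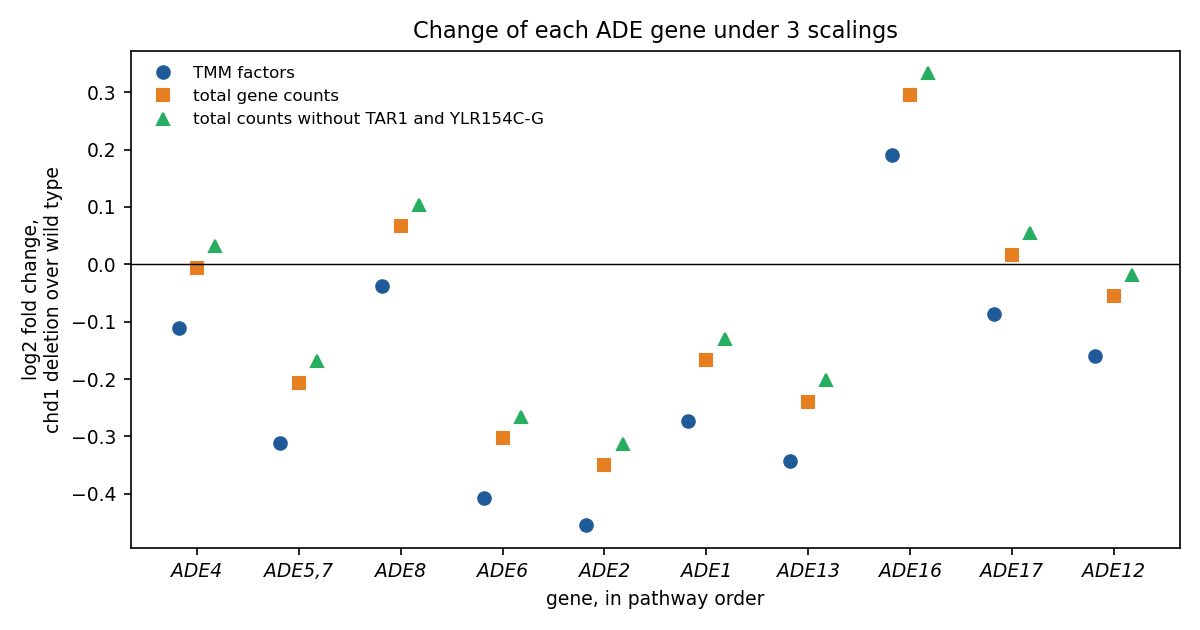
Log2 fold change of each ADE gene, chd1 deletion over wild type, with TMM factors, with total gene counts and with total gene counts after leaving out TAR1 and YLR154C-G. Changing the scaling moves all 10 genes up together, so their order is kept while ADE4, ADE8 and ADE17 cross 0.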

How the data were processed

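Total RNA of 2 chd1 deletion and 2 wild-type libraries had been made into libraries with a kit intended for small RNA and sequenced by Illumina HiSeq, per the labels' protocols. CASAVA 1.8, TopHat and sacCer3, which is the R64 assembly, are listed in the submitters' processing notes. Not given in the sources used here are the read counter, its annotation and its use of strand. The deposited gene tables hold raw read counts per gene and the gene length, per the file headers; a further deposited column, a length-normalized signal, entered no test. Of 5816 identifiers 5813 were found in R64, whose coordinates are 1-based.

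Counts were tested with edgeR 4.0.16 (R 4.3.3; quasi-likelihood test, TMM factors, filterByExpr at a minimum count of 10, a genotype term alone, Benjamini-Hochberg threshold 0.05); DESeq2 1.42.0 and limma-voom (limma 3.58.1) were alternatives. The test was run on simulated data with equal spread in both groups and with larger changes than those of the ADE genes. That run therefore does not bear on the calls made here. Standard errors are the log2 fold change over the square root of F. Motifs were searched on both strands of the R64 sequence, in a window of 500 bases set after the counts had been seen and before any match, and coding sequences aligned with Biopython 1.88. The members, lists and alternatives were chosen with earlier results of these data known. Text names all 10 members, genes of the fixed lists that passed or changed most, flanking genes of members that passed, the 3 genes of nearest profile, and SHM1, ADE3, HIS1, BAS1 and GCN4, these 5 chosen after their values were seen. Gene reads per library were 2145684 to 4117998; with 2 libraries per group precision rests on the pooled spread. Intron tables were not used. Same-numbered replicates did not deviate together (correlation 0.02 over 4116 genes), so the numbers were not taken as pairs.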

Additional observations from a re-analysis of the deposited data

How the results depend on the processing

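Of the values of the 10 ADE genes under 12 alternatives, 98 kept their direction and their side of the threshold, 14 lost a call, 2 gained one and 6 turned sign, all 6 in genes far from the threshold. The sign changes were those of ADE8 (0.067) and ADE17 (0.016) with total gene counts, of ADE4 (0.031), ADE8 (0.10) and ADE17 (0.054) with total gene counts less TAR1 and YLR154C-G, and of ADE8 without wild-type replicate 1 (0.032; -0.097 to 0.032 when 1 library was left out). Among other named genes ADE3 turned to 0.045 and 0.082 under the same totals, AFI1 to -0.11 without wild-type replicate 2 (range -0.11 to 0.61 when 1 library was left out) and ERG25 to -0.039 without deletion replicate 1 (range -0.039 to 0.18). The number of ADE genes called lower was 0 under both totals and ranged from 0 to 4 when 1 library was left out; the median of the ADE genes was -0.11 and -0.075 under these totals, and -0.23 to -0.18 when 1 library was left out. Over all genes, 92 were higher and 168 lower; total gene counts gave 176 and 65, those less TAR1 and YLR154C-G 318 and 71, and DESeq2 29 higher. Leaving out 1 library gave 58 to 213 higher and 70 to 364 lower. With the replicate block there were 165 higher and 259 lower genes in all, and 3 ADE genes lower; the block changed no call of a member, while SHM1 (-0.50) and RGA1 (-0.45) passed with it. The cause of these shifts was not tested, beyond the shift of the median that the scaling itself makes. Each member had at least 312 reads per library, and replicates differed beyond counting error (chi-square per degree of freedom over tested genes 2.50 in the deletion and 6.26 in wild type).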
